A study of Mus musculus with 2 samples.

Results

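Dermal fibroblasts (dFBs) of mouse dorsal skin were chosen by the RNA molecules counted in each cell, with Grem1 and Cyp26b1 as the leading genes. A cell was selected when it had at least 1 UMI (a distinct transcript molecule) of the dFB receptor gene Pdgfra, none of Ptprc, Pecam1 or Dpp4, and at least 2 UMIs of Grem1 and Cyp26b1 together. It also had to hold fewer than 2 UMIs of Fmo2, F3 and Gdf10 together, fewer than 2 of Crabp1, Dkk2 and Prdm1, and fewer than 2 of Lrrc15 and Col11a1, genes that mark other dFB classes. This gave 969 of 19578 kept cells, 538 in the Ctrl library and 431 in the AD library. These 2 libraries compare healthy skin with a model of atopic dermatitis (AD), in a study of the chemokine signals between dFBs and T cells.

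Both libraries came from dorsal skin of female C57BL/6J mice that were 7 weeks old and whose hair had been removed with a depilatory cream 24 hours before the first application. The Ctrl mice received ethanol without an active agent. The AD mice received 4.5 nmol of MC903 (calcipotriol, an analogue of vitamin D that inflames the skin) in ethanol at each application. Both groups were treated daily for 10 days on an area of 2 cm by 2 cm, and skin was taken on day 10. How many mice stand behind a library is not given in the sources used here. Each condition has 1 library, so no test between conditions was possible, no p-value is given, and a difference between conditions cannot be told apart from a difference between libraries. All brackets after a level or a share hold a 95% interval that covers counting error only.

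In the Ctrl library 12598 barcodes held 125184653 UMIs, and in the AD library 8778 barcodes held 76106062 UMIs. After removal of barcodes outside 200 to 6000 genes or above 10% mitochondrial UMIs, 11399 Ctrl cells and 8179 AD cells remained. The Grem1/Cyp26b1 dFBs had a median of 6829.5 UMIs in Ctrl and 8909 in AD, and their summed UMIs were 3993705 and 4086608. The median share of mitochondrial UMIs was 3.38% in Ctrl and 1.99% in AD. Depth thus ran opposite to that of the other Pdgfra+ cells, whose median was 9385 UMIs in Ctrl against 6778 in AD. A total of 35 barcodes occurred in both libraries, and 2 selected cells of each library carried one of them. Levels are given in CPM, a gene's summed UMIs in the selected cells scaled to 1000000 of their UMIs, and ratios are log2 of AD over Ctrl after 1 CPM had been added to each.

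Gremlin 1, the product of Grem1, is a secreted antagonist that binds bone morphogenetic proteins (BMPs) and keeps them from their receptors. Cyp26b1 encodes an enzyme that breaks down retinoic acid, the active form of vitamin A, and so limits its action on nearby cells. Dermal fibroblasts make the collagens, proteoglycans and elastic fibres of the dermis, and those of the deep reticular layer include precursors of dermal fat cells.

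The Grem1/Cyp26b1 dFBs differed little in their share of the dFBs between the libraries. Of the cells with a Pdgfra UMI and no Ptprc or Pecam1 UMI, they were 10.1% in Ctrl (9.26% to 10.9%, 538 of 5353). In AD they were 8.81% (8.03% to 9.64%, 431 of 4894). The intervals overlap, but they cover counting error only and do not show equal shares. With each cell thinned to 3000 UMIs, which left out 1814 shallower Ctrl cells and 1608 AD cells, the shares were 16.4% and 14.2%. Thinning also removes UMIs of the genes that exclude a cell, and 639 Ctrl cells and 522 AD cells then met the rule. The thinned class is thus another set of cells. Among all kept cells the order was the opposite, with 4.72% in Ctrl and 5.27% in AD. Other classes differed by more. Dpp4+ cells, which resemble interstitial progenitors, were 55.4% of the dFBs in Ctrl and 32.5% in AD, and cells with at least 2 UMIs of Fmo2, F3 and Gdf10 were 6.26% and 34.9%.

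**Figure D1:**
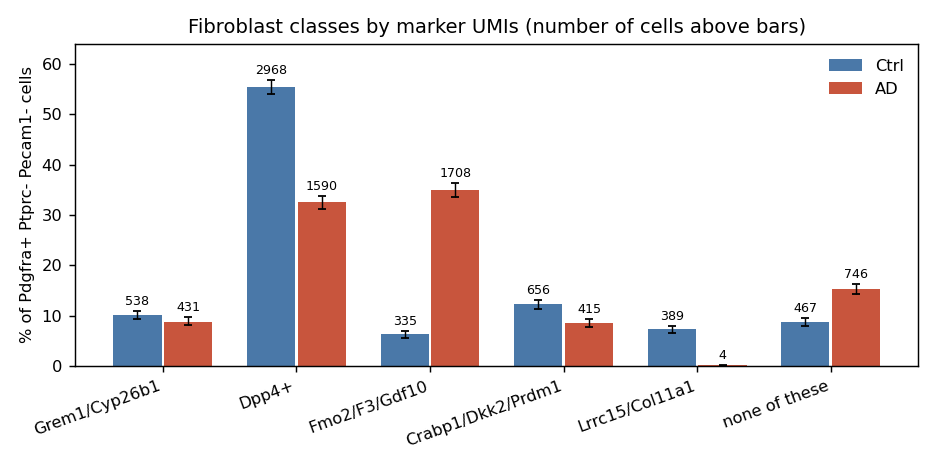
Share of each class (y axis, % of Pdgfra+ Ptprc- Pecam1- cells) in the Ctrl library (blue) and the AD library (red), with the number of cells above each bar; whiskers are exact 95% binomial intervals for counting error. The Grem1/Cyp26b1 class stands at 10.1% and 8.81%, while the Dpp4+ class is lower and the Fmo2/F3/Gdf10 class higher in AD.

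Cyp26b1, far more than Grem1, determined which cells were selected. A Cyp26b1 UMI was found in 99.4% of the selected Ctrl cells and 99.5% of the selected AD cells, with medians of 9 and 12 UMIs per cell. A Grem1 UMI was found in 33.6% of them in Ctrl and 25.8% in AD. In 420 Ctrl cells and 356 AD cells Cyp26b1 alone reached 2 UMIs and Grem1 did not. Grem1 stood at 229 CPM in Ctrl against 157 CPM in AD, and Cyp26b1 at 1666 CPM and 1916 CPM. These genes define the class, so their levels are a description. They are not restricted to it either, since the selected cells held 20% of all Cyp26b1 UMIs of kept Ctrl cells and 22.8% in AD, and cells of the Crabp1/Dkk2/Prdm1 class in AD had 2207 CPM of Cyp26b1.

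The cells had been labelled reticular preadipocyte-like, with Pappa, Chl1 and Cpxm1 as further markers, and these markers held in part. Pappa, a protease that frees insulin-like growth factors (IGFs) from their binding proteins, was at 109.7 CPM in Ctrl against 138 CPM in AD, above the pooled other Pdgfra+ cells by 0.95 and 1.34 on the log2 scale. The Crabp1/Dkk2/Prdm1 class held more Pappa than the selected cells in both libraries, at 123 and 177 CPM. Chl1, a neural adhesion molecule, was at 66.1 and 412 CPM, which is 0.81 and 2.14 above the pooled other Pdgfra+ cells. Cpxm1, a carboxypeptidase-like protein of the matrix, was at 208 and 2718 CPM. In Ctrl it was 0.22 below the other Pdgfra+ cells on the log2 scale, and in AD 2.35 above them. Cpxm1 and Chl1 thus set these cells apart mainly in the AD library.

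Markers of preadipocytes and of the reticular dermis gave a mixed picture. Pparg, the master regulator of fat cell formation, was at 2.50 CPM in Ctrl (10 UMIs) against 9.79 CPM in AD (40 UMIs). Dlk1, a marker of preadipocytes and of the deep dermis, was at 1.00 and 1.22 CPM from 4 and 5 UMIs. Cd36, a fatty acid carrier, was at 1.502 and 15.9 CPM, and 5 of the 12 AD cells with a UMI held 86.2% of the AD UMIs. Mgp, an inhibitor of matrix calcification, was at 21.8 and 133 CPM. Mgp was lower than in the pooled other Pdgfra+ cells by 2.04 on the log2 scale in Ctrl and by 2.13 in AD, where 5 cells held 57.4% of its UMIs. Cyp4b1, another gene of the deep dermis, was at 97.9 and 40.6 CPM, above the other Pdgfra+ cells by 1.06 and 0.54. Icam1, an adhesion molecule of preadipocytes, was at 340 and 806 CPM, above the pooled other cells by 0.47 in Ctrl and 0.46 in AD. Lpl, lipoprotein lipase, was below the pooled other cells by 1.68 in Ctrl and above them by 0.40 in AD. Pparg in Ctrl was about as low in the Fmo2/F3/Gdf10 class, at 2.94 CPM, and higher in the class with no marker of the others, at 24.4 CPM. A list of reticular fibroblast genes summed to 2239 CPM in Ctrl against 2614 CPM in the pooled other cells, and to 694 CPM in AD against 1753 CPM. Of its 7 measured genes 2 were at least 2-fold higher in AD and 4 lower, and 2 of the 7 reached 20 CPM in AD only and 1 in Ctrl only. With few UMIs of Pparg, Dlk1 and Cd36 and with markers on both sides, the name reticular preadipocyte was neither met by all of its markers nor settled by them, so the cells are called Grem1/Cyp26b1 dFBs here.

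Next, the Grem1/Cyp26b1 dFBs were described against all other Pdgfra+ cells of the same library. The rule that chose the cells also shapes this contrast, so it is given without a reading. Of the genes that reached 20 CPM in the selected or the other cells, 2.29% were at least 2-fold higher in the selected cells and 6.48% at least 2-fold lower in Ctrl, against 1.45% and 3.23% in AD. Ccl19, a chemokine that attracts T cells and dendritic cells through CCR7, was higher than in the other cells by 2.32 on the log2 scale in Ctrl and 1.74 in AD. Serpina3n, a secreted inhibitor of serine proteases, was higher by 1.78 and 1.44. Lum, which encodes the collagen-binding proteoglycan lumican, was higher by 1.43 and 1.78. The other genes highest in both libraries were Gm17167, Sulf2 (an enzyme that trims heparan sulfate), Penk (the precursor of enkephalins), Cyp2f2, Lgals3 (galectin 3), Col1a1, Pappa, Sowahc and Ltbp1. The 6 genes lowest in both were Ptgs2 (the prostaglandin synthase COX-2), Ackr3 (a scavenger receptor for CXCL12), Dnajb1, Igfbp6, Gfpt2 and Ifi205. Ptgs2 was lower by 1.85 in Ctrl and by 1.51 in AD.

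Between the libraries, the Grem1/Cyp26b1 dFBs differed at many genes in both directions. Among 6852 genes that reached 20 CPM in Ctrl or AD, 652 were at least 2-fold higher in AD (9.52%) and 780 at least 2-fold lower (11.4%), around a median log2 ratio of 0.05. In the Dpp4+ cells the shares were 7.83% and 11.9%, and in the Fmo2/F3/Gdf10 cells 8.27% and 17.4%. Over all other Pdgfra+ cells they were 7.37% and 12.7%. The rule allowed 1 UMI from each set of other classes' genes except Dpp4, and such cells were not equally frequent. A Fmo2 UMI was found in 2.42% of the selected Ctrl cells and 19.5% in AD, and a F3 UMI in 2.0% and 16.0%. Other genes went the opposite way, with Dkk2 in 13.4% and 6.73%, Crabp1 in 5.39% and 1.86% and Lrrc15 in 4.46% and 0.23%. The part of such cells in the ratios was not tested. Counts of gene lists below are read beside 9.52% and 11.4%, with no test. A gene that reached 20 CPM in 1 library only was below that limit in the other, which favours a higher value in the former. Such genes are counted below beside the counts of lists in which they were at least 25% of those measured. The genes with the highest ratios include members of the acute phase response, a chemokine and a vitamin D response gene. Those with the lowest ratios include genes of the matrix, of smooth muscle and of red blood cells.

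**Figure D2:**
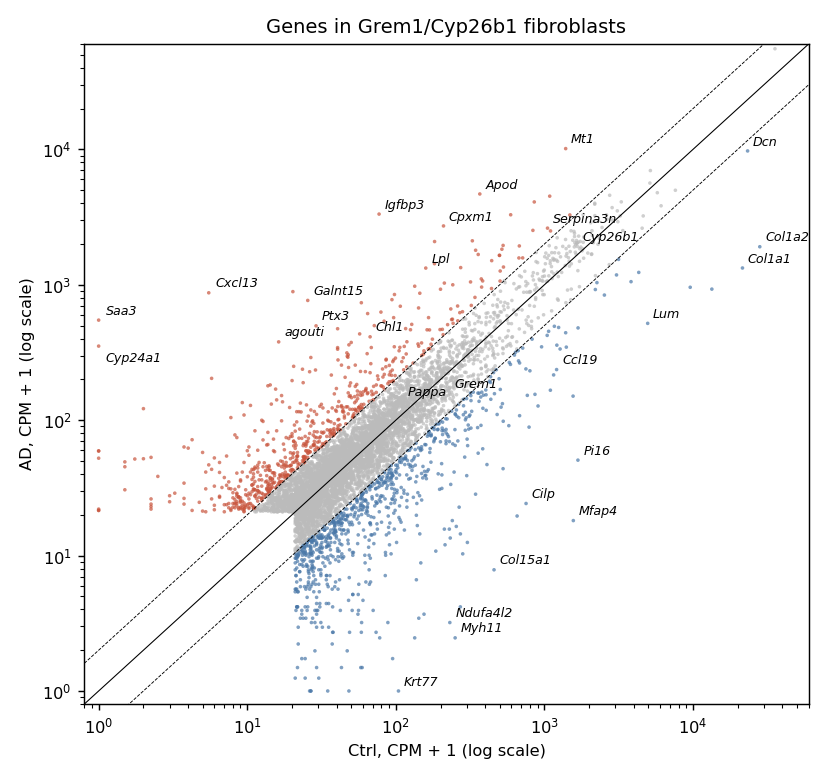
Each point is 1 of 6852 genes in the Grem1/Cyp26b1 dFBs, with its level in Ctrl on the x axis and in AD on the y axis (CPM with 1 added, log scales); the solid line marks equal levels and the dashed lines a 2-fold difference. Red points (652) are at least 2-fold higher in AD and blue points (780) at least 2-fold lower; Saa3 and Cyp24a1 lie at the left edge with no UMI in Ctrl, and the collagen genes lie far below the line.

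Acute phase genes that could be measured were higher in AD. Of 19 listed acute phase and antimicrobial genes 11 reached 20 CPM, and all 11 were at least 2-fold higher in AD, with a median log2 ratio of 3.15. Of these, 6 reached 20 CPM in AD only, which favours a higher value there, while Serpina3n, Ptx3, Lbp, Cp and Steap4 reached it in both. Saa3, the serum amyloid A of mouse stromal cells and macrophages, had no UMI in the 538 Ctrl cells and 2236 UMIs in AD, or 547 CPM (525 to 570). Against the limit that 3 counts over the group set, it was at least 728-fold higher. Its UMIs came from 69 of the 431 AD cells (16.0%), and the 5 cells with the most held 44.5% of them. T cells, used as background, held a Saa3 UMI in 2.54% of cells in AD at a median depth of 5920.5 UMIs and in none of 605 cells in Ctrl at 3236 UMIs. Saa3 was thus spread over a minority of cells and concentrated in a few.

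The promoter of Saa3 is shown because each measured gene of the acute phase list was higher. The sequence is from RefSeq (GRCm38.p6, chr7:46715677-46715926, minus strand), the 250 bases before the transcription start, with capitals for its match to the C/EBP core TTGCNNAA, which lies on the opposite strand 99 to 92 bases before the start. C/EBP proteins are transcription factors of the acute phase response.
Saa3: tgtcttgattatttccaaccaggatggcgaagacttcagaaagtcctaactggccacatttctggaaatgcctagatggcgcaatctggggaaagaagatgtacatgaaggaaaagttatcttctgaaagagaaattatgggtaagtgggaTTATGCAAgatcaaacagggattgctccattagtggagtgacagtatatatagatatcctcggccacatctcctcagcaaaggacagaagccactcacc
Of 32851 mouse promoters of the same table, searched on both strands over the same length, 9.56% hold this motif, and a match is a description only. Cebpd, which encodes C/EBP delta, was at 835 CPM in Ctrl against 2521 CPM in AD, and Cebpb at 1076 and 1942 CPM. Cebpd was more than 2-fold higher, with a log2 ratio of 1.59, and Cebpb at 0.85 was not.

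Other acute phase genes were more widely detected. Serpina3n was at 1048 CPM in Ctrl (1016 to 1080) against 2618 CPM in AD (2569 to 2668), and 85.3% and 86.5% of cells had a UMI of it. Ptx3, a long pentraxin that binds microbes and complement, was at 28.0 CPM in Ctrl against 496 CPM in AD, a log2 ratio of 4.10, which was 1.86 without the limits on the genes of other classes. Of the Ctrl cells 9.29% had a Ptx3 UMI, and of the AD cells 39.9%, against 3.80% and 6.50% of T cells. Lbp, which presents bacterial lipopolysaccharide, was at 84.9 and 277 CPM. Lcn2, which withholds iron from bacteria, was at 0.50 CPM in Ctrl (2 UMIs) against 44.3 CPM in AD, and Hp (haptoglobin) and Saa1 had no UMI in Ctrl. Hp was at 58.2 CPM in AD and Saa1 at 51.4 CPM, but 5 cells held 66.4% of these Hp UMIs and 70.5% of the Saa1 UMIs. An Hp UMI was found in 16.9% of the AD cells against 9.04% of AD T cells, and with cells thinned to 1000 UMIs in 3.32% against 2.54%, a share near that background. Saa1 has a near-identical neighbour, Saa2, and Serpina3n close relatives, so reads may have been split or lost between such copies.

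Chemokine genes differed in both directions. Ccl2, the monocyte attractant that binds CCR2, was at 181 CPM in Ctrl (168 to 195) against 1430 CPM in AD (1394 to 1467), with a UMI in 32.7% and 65.9% of cells. T cells had a Ccl2 UMI in 10.4% and 17.8% of cells, and after thinning to 1000 UMIs (536 of 538 and 422 of 431 dFBs were deep enough) the shares in the Grem1/Cyp26b1 dFBs were 11.0% and 33.9% against 4.33% and 4.80%. Ccl7, a neighbour of Ccl2 with related receptors, was at 516 and 1829 CPM. Ccl19 was lower in AD, at 235 CPM (221 to 251) against 1207 CPM in Ctrl (1173 to 1241), and 48.3% of AD cells had a UMI of it against 87.0% in Ctrl. Ccl8 was at 88.4 and 15.2 CPM, and Ccl11, the eosinophil attractant eotaxin, at 279 and 340 CPM. Of 5 measured CC chemokines, 2 were thus at least 2-fold higher and 2 at least 2-fold lower.

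Among CXC chemokines 4 of 7 were higher and 1 was lower, and 2 of the 7 reached 20 CPM in AD only and 1 in Ctrl only. Cxcl13, which draws B cells and follicular T cells through CXCR5, was at 4.51 CPM in Ctrl (18 UMIs) against 871 CPM in AD (843 to 900), with a log2 ratio of 7.31, which was 3.27 without the limits on the genes of other classes. A Cxcl13 UMI was present in 14 of the 538 cells in Ctrl (2.60%), in 164 of the 431 in AD (38.1%), and in 1.49% and 14.4% of T cells. Cxcl1, a neutrophil attractant, was at 57.6 and 736 CPM, and Cxcl12, which retains leukocytes and stem cells through CXCR4, at 199 and 926 CPM. Cxcl9, an interferon gamma target and ligand of CXCR3, was at 57.1 CPM in Ctrl against 0.49 CPM in AD. All Cxcl9 UMIs of the Ctrl cells came from 5 cells, so its level in Ctrl describes those cells. Cxcl10 was at 58.3 and 88.8 CPM and was not 2-fold apart.

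More cytokine and receptor genes were higher than lower in AD. Of 8 measured stromal cytokines 5 were higher and 2 lower, and 2 of the 8 reached 20 CPM in Ctrl only and 1 in AD only. Csf1, the growth factor of macrophages, was at 377 and 960.5 CPM. Tnfsf9, the ligand 4-1BBL, was at 47.3 and 359 CPM, and Lif, a cytokine of the interleukin 6 family, at 24.3 and 97.4 CPM. Flt3l, a growth factor of dendritic cells, was at 136 CPM in Ctrl against 5.63 CPM in AD. Of 21 measured receptors 8 were higher and 2 lower. Il4ra, a receptor chain of the type 2 cytokines, was at 80.4 CPM in Ctrl (71.8 to 89.7) against 238 CPM in AD (223 to 253), and Osmr, the receptor of oncostatin M, at 66.1 and 223 CPM. Il11ra1 was lower, at 521 and 131 CPM.

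Within the JAK-STAT pathway, which carries the signals of these receptors, 5 of 16 genes were higher and 1 was lower, and Socs3, a feedback inhibitor that JAK-STAT signals induce, had the highest ratio. It was at 326 CPM in Ctrl (309 to 344) against 2111 CPM in AD (2067 to 2156), with a UMI in 61.3% and 86.3% of cells and in 20.8% and 46.6% of T cells. Cish, a relative of Socs3, was at 14.3 and 57.5 CPM, and the kinase gene Jak2 at 56.6 and 159.6 CPM. Stat3, a transcription factor of the pathway, was at 309.99 and 527 CPM, and with a log2 ratio of 0.76 it was not 2-fold apart.
The promoter of Socs3 (RefSeq, GRCm38.p6, chr11:117969367-117969616, minus strand) is shown for the JAK-STAT group, with its match to the STAT core TTCNNNGAA in capitals, 154 to 146 bases before the start.
Socs3: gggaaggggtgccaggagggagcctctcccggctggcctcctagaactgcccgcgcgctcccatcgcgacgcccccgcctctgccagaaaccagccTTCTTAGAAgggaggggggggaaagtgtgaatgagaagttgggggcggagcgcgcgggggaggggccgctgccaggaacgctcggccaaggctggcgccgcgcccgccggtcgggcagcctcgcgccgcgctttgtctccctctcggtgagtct
This motif reads the same on both strands and is held by 7.02% of the promoters in the table.

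Metallothioneins, small proteins that bind zinc and copper, were detected in nearly all cells and higher in AD. Mt1 was at 1389 CPM in Ctrl (1353 to 1426) against 10126 CPM in AD (10029 to 10224), and Mt2 at 1084 and 4511 CPM. A Mt1 UMI was found in 92.8% and 99.1% of cells, and in T cells in 38.4% and 78.3%. Summed over T cells, however, Mt1 was at 462 CPM in Ctrl against 468 CPM in AD. Slc39a14, a zinc importer, was at 78.4 and 627 CPM, and Slc30a1, a zinc exporter, at 17.3 and 21.8 CPM, so 3 of 4 measured genes of the list were higher and the other one reached 20 CPM in AD only.
The promoter of Mt1 (RefSeq, GRCm38.p6, chr8:94178839-94179088, plus strand) carries a match to the core of the metal response element, TGCNCNC, in capitals, 23 to 17 bases before the start.
Mt1: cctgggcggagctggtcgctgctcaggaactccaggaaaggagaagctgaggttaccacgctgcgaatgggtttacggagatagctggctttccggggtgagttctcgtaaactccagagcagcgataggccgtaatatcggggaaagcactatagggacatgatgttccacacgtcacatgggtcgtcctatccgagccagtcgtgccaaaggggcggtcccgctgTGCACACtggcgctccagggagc
The motif is short, and 44.4% of the promoters hold it on at least 1 strand.

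Of 4 measured vitamin D response genes 1 was higher, Cyp24a1, which encodes the enzyme that inactivates vitamin D and reached 20 CPM in AD only. It had no UMI in the Ctrl cells and 1436 UMIs in AD, or 351 CPM (333 to 370), which is at least 468-fold higher against the limit of 3 counts. Its UMIs came from 123 of 431 AD cells (28.5%), against 3.67% of T cells. Vdr, the receptor, was at 38.8 and 44.3 CPM, and it was not 2-fold apart. In the Fmo2/F3/Gdf10 class Cyp24a1 was at 126 CPM in AD and in the Dpp4+ class at 29.4 CPM, both below the 351 CPM of the Grem1/Cyp26b1 dFBs.

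The genes of the collagen fibres were far lower in AD. All 6 measured fibrillar collagen genes were lower in AD, with a median log2 ratio of −3.71. Col1a1, the first chain of type I collagen, was at 21514 CPM in Ctrl against 1329 CPM in AD. Col1a2, its other chain, was at 28135 and 1908 CPM, and Col3a1, type III collagen, at 13385 and 928 CPM. Together these 3 genes were 6.30% of all UMIs of the Grem1/Cyp26b1 dFBs in Ctrl and 0.417% in AD. The difference was found in most cells, since the median cell had 13453 CPM of Col1a1 in Ctrl and 332 CPM in AD. The level in T cells, which do not make these collagens, was also higher in Ctrl. They held a Col1a1 UMI in 53.6% of cells in Ctrl and 6.21% in AD, and their summed level was 403 and 10.4 CPM, well below that of the dFBs in the same library. In the Dpp4+ class the log2 ratio of Col1a1 was −4.32 and in the Fmo2/F3/Gdf10 class −1.90, against −4.02 here.

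The promoter of Col1a2 (RefSeq, GRCm38.p6, chr6:4505368-4505617, plus strand) is given for the collagen group, with the CCAAT box in capitals, which begins 109 bases before the start.
Col1a2: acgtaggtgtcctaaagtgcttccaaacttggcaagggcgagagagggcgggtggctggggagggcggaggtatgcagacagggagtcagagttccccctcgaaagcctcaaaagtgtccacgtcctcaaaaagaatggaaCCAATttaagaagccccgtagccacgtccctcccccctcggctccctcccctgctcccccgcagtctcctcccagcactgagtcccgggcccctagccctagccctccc
Searched on both strands, the letters CCAAT occur in 33.9% of the promoters.

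Other collagens and elastic fibre genes were lower in most cases too. Of 12 other collagens 7 were lower and 1 was higher, and 3 of the 12 reached 20 CPM in Ctrl only and 1 in AD only. Col15a1, a collagen of basement membranes, was at 457 CPM in Ctrl (436 to 478) against 6.85 CPM in AD (4.55 to 9.90), and its share of cells was 84.4% and 4.87%. Col23a1, a membrane collagen, was higher, at 16.3 and 136 CPM. Of 18 elastic fibre genes 13 were lower and 1 was higher, and 5 of the 18 reached 20 CPM in Ctrl only. Mfap4, which binds elastin and collagen, was at 1564 CPM in Ctrl (1525 to 1603) against 17.1 CPM in AD (13.4 to 21.6), with a UMI in 82.0% and 8.82% of cells. Eln, elastin itself, was at 679.6 and 107 CPM. Lox, the enzyme that cross-links collagen and elastin, went against the rest at 144 and 865 CPM.

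Among the proteoglycans 5 of 12 measured genes were lower and none was higher. Dcn, decorin, was at 23289 and 9734 CPM, and Lum at 4952 and 518 CPM. Bgn, biglycan, was at 1683 and 479 CPM. Has1, a hyaluronan synthase, was at 482 and 534 CPM and Tnfaip6, which modifies hyaluronan, at 2184 and 3237 CPM, and neither was 2-fold apart. Of 18 matricellular genes, whose products signal from the matrix, 6 were higher and 6 lower, and 3 of the 18 reached 20 CPM in Ctrl only and 2 in AD only. Tnc, tenascin C, was at 39.6 and 473 CPM. Thbs1, thrombospondin 1, was at 181 and 2084 CPM, and Smoc2 at 96.9 and 846 CPM. Sparc, a collagen-binding protein, was at 9571 and 957 CPM, and Cilp, a cartilage and dermis protein, at 751 and 23.2 CPM. Spp1, osteopontin, was at 1.00 CPM in Ctrl (4 UMIs) against 121 CPM in AD, and 5 AD cells held 95.3% of its UMIs.

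More matrix proteases were higher than lower. Of 25 measured matrix proteases and inhibitors 10 were higher and 5 lower, with a median log2 ratio of 0.91. Ctsk, the collagen-degrading cathepsin K, was at 853 CPM in Ctrl (825 to 882) against 4088 CPM in AD (4027 to 4151), with a UMI in 90.2% and 88.2% of cells. Mmp3, stromelysin, was at 241 and 998 CPM, and Mmp2, gelatinase A, at 1098 and 2496 CPM. Adamts4, an aggrecanase, was at 93.1 and 775 CPM. Timp3, an inhibitor of these enzymes, was lower, at 474 and 235 CPM.

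Genes of interstitial progenitors were lower in AD. Their list summed to 3541 CPM in Ctrl against 512 CPM in AD here, and to 5509 and 1628 CPM in the Dpp4+ class. Cells of that class in which no Dpp4 UMI was caught were not left out by the rule, and their part was not tested. Of 9 measured genes 6 were lower and none was higher, and 3 of the 9 reached 20 CPM in Ctrl only and 1 in AD only. Pi16, a secreted peptidase inhibitor of such progenitors, was at 1679 CPM in Ctrl (1639 to 1720) against 49.7 CPM in AD (43.1 to 57.0), with a UMI in 471 of the 538 cells in Ctrl (87.5%) and in 107 of the 431 in AD (24.8%). Cd34 was at 1096 and 165 CPM, and Cd55, a complement inhibitor, at 266 and 21.8 CPM. Thy1, a surface protein of fibroblasts in general and not in this list, was at 905 and 126 CPM.

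Some genes of lipid handling were higher in AD and others lower, while Pparg was barely detected. Of 13 measured preadipocyte factors 6 were higher and 1 lower, but 4 of the 13 reached 20 CPM in AD only and 1 in Ctrl only. Of 7 adipocyte genes 4 were higher and none lower. Lpl, lipoprotein lipase, was at 158 CPM in Ctrl (146 to 171) against 1327 CPM in AD (1292 to 1363), with a UMI in 38.3% and 76.3% of cells. Plin2, which coats lipid droplets, was at 46.6 and 290.5 CPM. Among 14 lipid transport genes 3 were higher and 4 lower, with Apod, a lipid carrier of the lipocalin family, at 366 and 4682 CPM. Fabp4, a fatty acid binding protein of fat cells and capillaries, was at 6.76 and 104 CPM, and 5 AD cells held 45.9% of its UMIs. Icam1, given above, was also more than 2-fold higher, while Cebpa, a late regulator of fat cells, was at 22.3 and 18.6 CPM. Pparg, at 9.79 CPM in AD, was below the level of 20 CPM asked of a measured gene.

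In the pathways of Grem1 and Cyp26b1 genes differed in both directions. Of 7 measured BMP antagonists besides Grem1, 3 were higher and 2 lower, and 1 of the 7 reached 20 CPM in Ctrl only and 1 in AD only. Nbl1, an antagonist of the same family as Grem1, was at 439 and 937 CPM. Fst, follistatin, which binds activin, was at 109 and 269 CPM, and Twsg1 at 296 and 103 CPM. Among BMP target genes 2 of 4 were higher. Id3, an early target of BMP receptors, was at 343 CPM in Ctrl (325 to 362) against 1798 CPM in AD (1757 to 1839), and Id1 at 22.3 and 72.4 CPM. No BMP receptor was 2-fold higher, and 2 of 6 were lower. Of 6 measured genes of retinoid metabolism besides Cyp26b1 none was higher and 3 were lower, and 2 of the 6 reached 20 CPM in Ctrl only. Adh7, a retinol dehydrogenase, was at 196 and 29.9 CPM and Rdh10, which makes retinal, at 30.5 and 12.7 CPM.

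The IGF axis, to which Pappa belongs, showed opposite values. Igfbp3, the main IGF carrier of the circulation, was at 76.1 CPM in Ctrl (67.8 to 85.2) against 3325 CPM in AD (3270 to 3382). A UMI of it was found in 13.9% and 85.8% of cells and in 3.80% and 27.7% of T cells. The log2 ratio of Igfbp3 was 5.43, and 3.84 without the limits on the genes of other classes. Pappa2, a relative of Pappa, was at 13.3 and 181 CPM. Igf1, the growth factor itself, was at 354 and 87.1 CPM. Among the other binding proteins, Igfbp5 was at 3825 and 1053 CPM, and Igfbp2 at 94.1 and 0.73 CPM. In all, 3 of 13 measured genes were higher and 7 were lower, and Pappa itself, with a log2 ratio of 0.32, was neither.

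The remaining genes with the highest ratios have varied roles. Galnt15, which starts O-linked sugar chains, was at 24.5 CPM in Ctrl against 765 CPM in AD, with a UMI in 10.2% and 88.2% of cells. The agouti gene a, which switches melanocytes to yellow pigment, was at 15.3 and 378 CPM, with a UMI in 9.29% and 65.0% of cells. Hsd11b1, which activates glucocorticoids, was at 8.26 and 134 CPM, and Prg4, lubricin, at 4.76 and 203 CPM. Ctla2a, a cathepsin inhibitor, was at 19.3 and 889 CPM, but T cells held 1067 CPM of it in Ctrl and 961 CPM in AD. In T cells 63.6% of AD cells had a Ctla2a UMI, against 26.9% of the Grem1/Cyp26b1 dFBs, and the part of T cell RNA in this result was not tested.

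**Figure D3:**
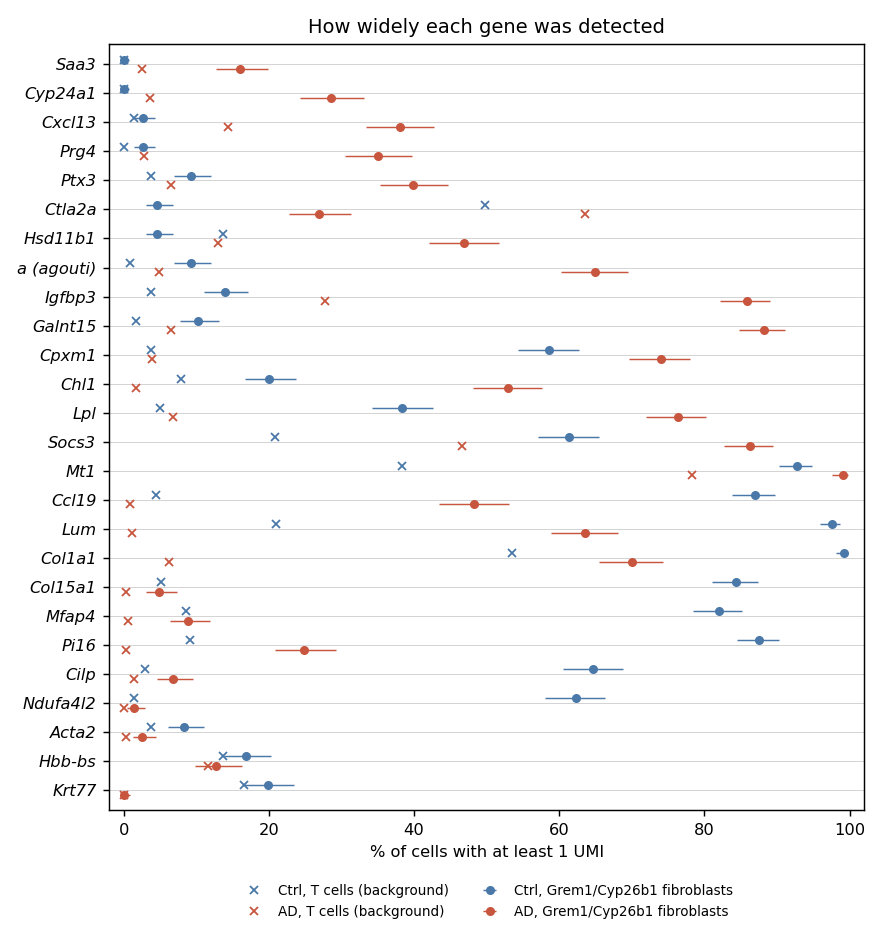
Share of cells with at least 1 UMI (x axis, %) for genes named in the text, in the Grem1/Cyp26b1 dFBs (filled circles with exact 95% binomial intervals) and in T cells as background (crosses), for Ctrl (blue) and AD (red). Igfbp3, Galnt15 and agouti are detected in most AD cells and few Ctrl cells, Mfap4, Pi16 and Ndufa4l2 in most Ctrl cells and few AD cells, and Ctla2a lies below the T cell share.

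**Figure D4:**
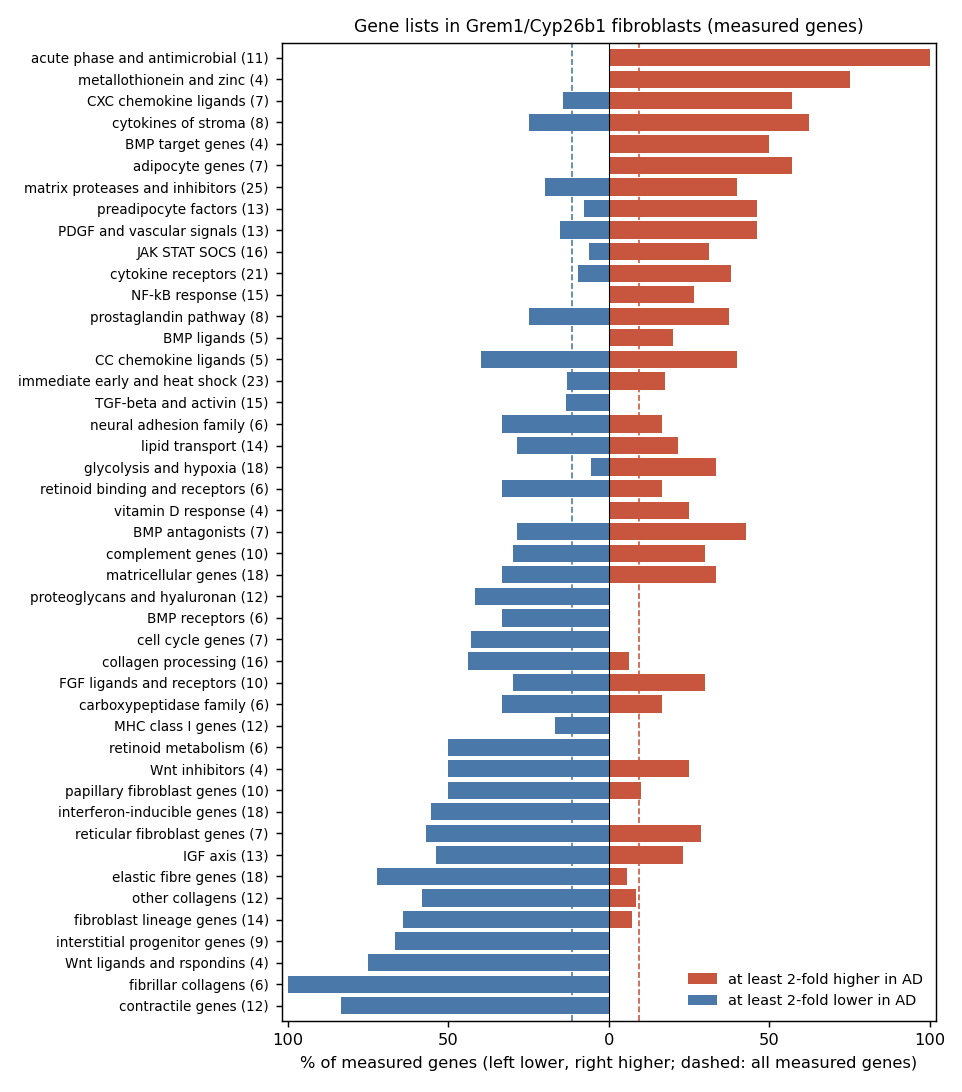
For each list with at least 4 measured genes (number in brackets), the share of its genes at least 2-fold higher in AD (red, right) and at least 2-fold lower (blue, left) in the Grem1/Cyp26b1 dFBs, ordered by median log2 ratio; dashed lines give the shares over all measured genes, 9.52% and 11.4%. Acute phase genes reach 100% on the right and fibrillar collagens 100% on the left.

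Among the 12 genes with the lowest ratios, several are known from other cell types and rested on few cells. Myh11, the myosin of smooth muscle, was at 249.6 CPM in Ctrl against 1.47 CPM in AD. Its Ctrl UMIs came from 33 of 538 cells, and 5 cells held 91.4% of them. Acta2, smooth muscle actin, was at 271 and 3.18 CPM, with 87.9% of its Ctrl UMIs in 5 cells, and Tagln and Myl9 followed the same pattern at 77.2% and 84.0%. Hbb-bs, a globin of red blood cells, was at 654 and 18.6 CPM, with 96.2% of its Ctrl UMIs in 5 cells. After cells in which markers of other cell types took 1% or more of the UMIs had been left out, the log2 ratio of Hbb-bs was −0.43 in place of −5.06, that of Myh11 −4.87 in place of −6.67, and that of Acta2 −4.63 in place of −6.02. Krt77, a keratin of sweat ducts and skin surface, was at 103 CPM in Ctrl and had no UMI in AD, with 74.3% of its Ctrl UMIs in 5 cells. Without the cells that held other types' markers its log2 ratio was −4.87 in place of −6.70, both of which depend on the CPM added. T cells of Ctrl held 410 CPM of Krt77, more than the dFBs did.

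Ndufa4l2 and Ppp1r14a, also known from mural cells of vessels, were spread over many Ctrl cells instead. Ndufa4l2, a protein of the respiratory chain under low oxygen, was at 229.9 CPM in Ctrl (215 to 245) against 2.20 CPM in AD (1.01 to 4.18), with a UMI in 335 of the 538 cells in Ctrl (62.3%) and in 6 of the 431 in AD. Ppp1r14a, an inhibitor of myosin phosphatase, was at 142 and 2.45 CPM, with a UMI in 43.3% and 2.32% of cells. T cells held a UMI of Ndufa4l2 in 1.49% of Ctrl cells. Of 12 measured contractile genes 10 were lower, but 8 of them, Acta2, Myh11, Tagln and Myl9 included, reached 20 CPM in Ctrl only. The lower genes also held Tpm2 at 281 and 9.30 CPM and Vim, the filament protein of all mesenchymal cells, at 2532 and 838 CPM. Actb at 2079 and 1688 CPM and Myh9 at 187 and 220 CPM were not 2-fold apart.

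Markers of other cell types were present, with list sums of 1.00 to 1222 CPM, and differed between the libraries. Mural cell markers summed to 566 CPM in Ctrl against 67.5 CPM in AD, with 2 of 4 measured markers lower and 3 of the 4 at 20 CPM or more in Ctrl only, and the most abundant was Myh11 in Ctrl and Rgs5 in AD. Erythroid markers summed to 1222 and 44.3 CPM, with all 4 measured ones lower, none of which reached 20 CPM in AD, and Hbb-bs the most abundant. Keratinocyte markers summed to 824 and 461 CPM, with 2 of 10 lower and 4 of the 10 at 20 CPM or more in Ctrl only, led by Krt10 in Ctrl and Krt14 in AD. Markers of Schwann cells and melanocytes summed to 182 and 35.0 CPM, with 4 of 5 lower, all 4 at 20 CPM or more in Ctrl only and the other one in AD only, led by Dct in Ctrl and Mbp in AD, and Pmel at 0 in AD. T cell markers summed to 10.5 and 1.96 CPM, mast cell markers to 17.8 and 5.87 CPM, neutrophil and basophil markers to 1.00 and 14.9 CPM and skeletal muscle markers to 12.5 and 2.69 CPM, and no gene of these lists reached 20 CPM. The T cell genes Cd3e, Cd3g, Trac and Cd28 were at 0 in AD and Trac at 0 in Ctrl. Macrophage markers summed to 97.9 and 131 CPM, with 1 of 3 higher and 1 lower, of which 1 reached 20 CPM in AD only and 1 in Ctrl only, led by Csf1r in Ctrl and Lyz2 in AD, with Fcgr1 at 0 in AD. Endothelial markers summed to 30.8 and 66.6 CPM, led by Kdr in both, the 1 measured gene, which reached 20 CPM in AD only, with Tie1 at 0 in Ctrl and Vwf at 0 in AD. In the pooled other Pdgfra+ cells keratinocyte markers summed to 1436.5 CPM in Ctrl and 163 CPM in AD, and macrophage markers to 47.8 and 37.6 CPM. The part of these cell types in the results above was not tested beyond the values given.

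The same genes were set beside the Dpp4+ and the Fmo2/F3/Gdf10 classes, whose cells come from the same libraries, without a test of the difference. Of the 12 genes with the highest ratios here all 12 were also higher in AD in both of those classes, and of the 12 with the lowest 11 were lower in both, with Hbb-bs as the exception. In the Dpp4+ cells Cpxm1 was at 302 CPM in Ctrl against 282 CPM in AD, and at 149 and 846 CPM in the Fmo2/F3/Gdf10 cells, against 208 and 2718 CPM here. Chl1 was at 40.6 and 48.6 CPM in the Dpp4+ cells and at 43.1 and 154 CPM in the Fmo2/F3/Gdf10 cells, against 66.1 and 412 CPM. Ptx3 and Cxcl13 started from higher Ctrl levels elsewhere, with 704 CPM of Ptx3 and 421 CPM of Cxcl13 in Ctrl Dpp4+ cells against 28.0 and 4.51 CPM here. In AD the level of Cxcl13 was 4680 CPM in the Dpp4+ cells and 1746 CPM in the Fmo2/F3/Gdf10 cells, both above the 871 CPM of the Grem1/Cyp26b1 dFBs. A large ratio here thus stood beside a lower level in AD. Pappa2 had a log2 ratio of 3.67 here, 0.75 in the Dpp4+ cells and −0.86 in the Fmo2/F3/Gdf10 cells.

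**Figure D5:**
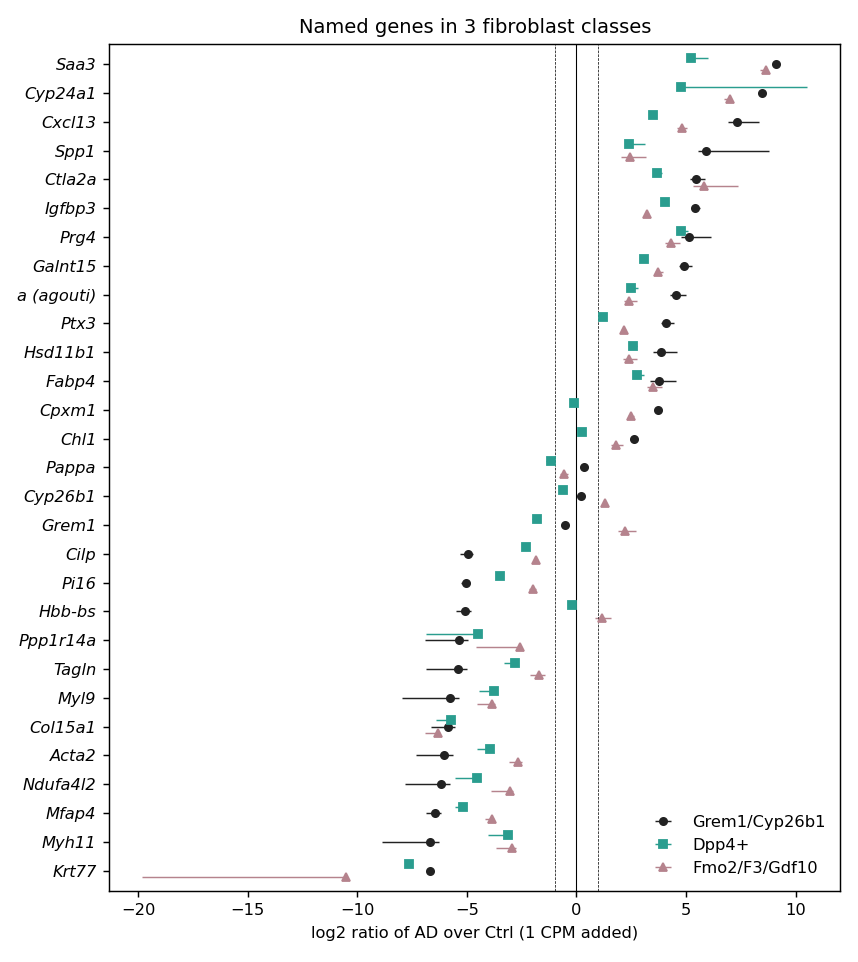
Log2 ratio of AD over Ctrl (x axis, 1 CPM added) for the 12 highest and 12 lowest ratios of the Grem1/Cyp26b1 dFBs and for the 5 markers of their label, in the Grem1/Cyp26b1 dFBs (black circles), Dpp4+ cells (green squares) and Fmo2/F3/Gdf10 cells (pink triangles); bars are 95% intervals for counting error, left out on sides where a library had no UMI, and dashed lines mark a 2-fold difference. Grem1 and Cyp26b1 chose the cells, Saa3, Cyp24a1 and Krt77 have no UMI in 1 library and their points depend on the CPM added, and Cpxm1 reads 3.70 in black against −0.10 in green.

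The Grem1/Cyp26b1 dFBs also varied among themselves, along the level of the genes that chose them. Cells just inside the limit, with 2 UMIs of Grem1 and Cyp26b1 together, numbered 43 in Ctrl and 47 in AD, and those just outside it, with 1 UMI, numbered 104 and 128. In AD, Cxcl13 was at 2981 CPM just outside, 3303 CPM just inside and 336 CPM in the 195 cells with 15 or more UMIs, and Ptx3 was at 1599, 1408 and 312 CPM. Igfbp3 followed at 8998, 6067 and 2455 CPM. Cpxm1 was at 348 CPM just outside, 970 CPM just inside and 3506 CPM at 15 or more, but at 344 CPM in the 34 cells with 3 UMIs, so the step at the limit was not held. Over the same 3 bins as Cxcl13, higher values at 15 or more were also found for Chl1 at 46.2, 86.3 and 509 CPM, Serpina3n at 618, 815 and 3373 CPM and Tnc at 23.1, 235 and 628 CPM. In Ctrl, Ccl19 was at 330 CPM just outside, 573 CPM just inside and 1583 CPM in the 196 cells with 15 or more UMIs. Serpina3n was at 418, 481 and 1250 CPM over these Ctrl bins. Cpxm1 did not follow its AD values there, at 188.9, 245.5 and 193.9 CPM, nor did Chl1, at 60.3, 23.9 and 71.8 CPM. The AD cells with 15 or more UMIs were also the deepest, with a median of 11560 UMIs against 4704 in those with 2. AD cells with 4 to 14 UMIs had a median of 6727 UMIs, against 5774 in those with 3. Cxcl13 was at 889 CPM in the former and 3187 CPM in the latter, and Ptx3 at 469 and 1378 CPM. Cpxm1 was at 2060 and 344 CPM in these bins. The part of depth in these values was not tested.

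Within AD, Cxcl13 and Ptx3 often occurred in the same cells. Of the 164 cells with a Cxcl13 UMI 57.3% also had a Ptx3 UMI, against 29.2% of the 267 without, at similar median depths of 9116 and 8737 UMIs. Cells with a Cxcl13 UMI also had more Cxcl1, at 1324 CPM against 362 CPM. Of the 61 AD cells without Igfbp3, 8.20% had a Cxcl13 UMI, against 43.0% of the 370 with Igfbp3. Cpxm1 went with Chl1, which 67.4% of the 319 Cpxm1 cells carried and 11.6% of the 112 others, though the former were deeper, at 10387 against 4746 UMIs. A Saa3 UMI was about as frequent with Cyp24a1 as without it, in 17.1% of Cyp24a1 cells and 15.6% of the rest. In Ctrl, Ccl19 was found in 91.7% of the cells with Pi16 and 53.7% of those without, at 7102 and 5259 UMIs. These shares describe cells of 1 library each and carry no test.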

How the data were processed

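Single-cell RNA-seq of dorsal skin covered 1 Ctrl and 1 AD library of 10x 3′ chemistry. The authors deposited UMI counts for 33904 gene identifiers and each barcode called as a cell, without normalization. The submitters' processing notes name Cell Ranger 3.1.0 and Seurat 5.0, the header of the count matrices names cellranger 5.0.0, and the genome is mm10 in the labels. The methods of the paper name other versions of both Cell Ranger and Seurat. The deposited matrices still held barcodes outside the cell filter of the methods (1199 in Ctrl, 599 in AD), so that filter was applied here. UMIs were summed over the selected cells of a library and scaled to CPM, since cells are not replicates. Intervals are exact Poisson for levels, exact Clopper-Pearson for shares and exact conditional binomial for ratios, at 95%, and UMI counting error is their only source. Genes were counted as higher or lower when at least 2-fold apart among those reaching 20 CPM in Ctrl or AD.

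Named genes are the markers of the label, the genes that chose the cells, the 12 highest and 12 lowest AD over Ctrl ratios among genes reaching 100 CPM in Ctrl or AD, the 12 highest and 6 lowest against other Pdgfra+ cells in both libraries, and examples from gene lists, which were taken from the highest levels or the largest ratios. The members and lists were chosen with earlier results of these data known. Some further genes, such as Cebpb, Stat3, Thy1 and Ccl11, were added after their values were seen. T cells, used as background, had at least 2 UMIs of Cd3e, Cd3d and Cd3g, at least 1 of Ptprc and none of Pdgfra (605 in Ctrl, 354 in AD). Doublets were not removed. The doublet caller Scrublet marked 395 Ctrl cells and 0 AD cells, so it did not work in AD, and leaving out the 5% of cells with the highest scores was used as an alternative. Promoters were matched by symbol in a RefSeq table (34 of 46 genes looked up). The calculation of ratios was run on simulated Poisson counts, without variation among cells or libraries, which is the model that the intervals assume. There 197 of 200 changed genes passed 2-fold, and 95.5% of the intervals held the true ratio. This checks the calculation only and says nothing about differences between libraries. Python 3.11.15, numpy 2.4.6, scipy 1.17.1, pandas 2.3.3, scanpy 1.11.5 and matplotlib 3.10.9 were used. The result for 1 gene is not reported here.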

Additional observations from a re-analysis of the deposited data

Results flagged for a closer look

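A few genes differed by at least 2-fold between the libraries in opposite directions in the Grem1/Cyp26b1 dFBs and in another dFB class of the same libraries. None of these differences between classes was tested, because each class has 1 sample per condition. C3, the central complement component, had a log2 ratio of AD over Ctrl of 1.89 in the Grem1/Cyp26b1 dFBs and −1.03 in the Dpp4+ cells. The former was 1.06 without the limits on the genes of other classes. Col23a1 stood at 2.98, against −1.47 in the Dpp4+ cells and −2.05 in the Fmo2/F3/Gdf10 cells. Ednrb, a receptor of endothelins, stood at 2.42, against −1.10 in the Dpp4+ cells. Cd24a, a surface protein of early preadipocytes, stood at 1.41, against −1.97 in the Fmo2/F3/Gdf10 cells. Cyp2f2, a cytochrome P450, stood at −1.05, against 1.32 in the Fmo2/F3/Gdf10 cells. Under some alternatives Cyp2f2 was not 2-fold lower in the Grem1/Cyp26b1 dFBs, with values of −0.83 to −0.96. Hbb-bs stood at −5.06, against 1.18 in the Fmo2/F3/Gdf10 cells, and at −0.43 once cells with 1% or more UMIs of other cell types' markers had been left out.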

How the results depend on the processing

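No paired analysis was possible because each condition has 1 library, and no library could be left out for the same reason. Of 21 alternatives, 16 chose other cells or scaled the counts differently and so could move a gene's ratio. Several of them could hardly change a sign. Setting the median to 0, scaling without the 50 most abundant genes and leaving out barcodes of both libraries moved no named ratio by over 1.5 times. Under the 16, the 50 named genes at least 2-fold apart stayed so in the same direction in 791 of 800 values. Many of these genes were chosen for large ratios, which favours that count, so it is a description only. The exceptions were Sulf2 (−0.94 to −0.95 under 3 settings), Cyp2f2 (−0.83 to −0.96 under 3), Icam1 (0.84 and 0.99 when Grem1 UMIs were required) and Hbb-bs (−0.43, given above). The sizes moved more with the choice of cells. Without the limits on the genes of other classes 22 of the 50 ratios moved by over 1.5 times, among them Cxcl13 to 3.27, Ptx3 to 1.86, Igfbp3 to 3.84 and Cilp to −2.68, and with at least 2 UMIs of Grem1 23 did so. Asking for at least 100 CPM left 251 genes higher and 253 lower, asking for at least 3 UMIs over both libraries gave 1387 and 2055, and adding 10 CPM in place of 1 gave 435 and 542. The share of Grem1/Cyp26b1 dFBs depended on the limits of the rule. In Ctrl and AD it was 11.99% and 11.4% with at least 1 UMI of Grem1 and Cyp26b1, 8.63% and 7.15% with at least 4, 3.33% and 2.23% with a UMI of each, 2.19% and 1.47% with at least 2 of Grem1, 44.7% and 35.4% without the limits on the genes of other classes, and 16.4% and 14.2% with cells thinned to 3000 UMIs. Among cells with 5000 to 15000 UMIs the shares were 10.5% in Ctrl and 7.80% in AD. In each of these settings the Ctrl share was the higher one. Leaving out the cells with the highest Scrublet scores, the barcodes of both libraries and the cells with other types' markers were 3 alternatives chosen after the data were seen. Pparg, Dlk1 and Cd36 rest on 10, 4 and 6 UMIs in Ctrl.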

Other observations

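Many interferon-inducible genes were lower in the Grem1/Cyp26b1 dFBs of AD. Of 18 measured genes 10 were at least 2-fold lower and none was higher, beside 11.4% and 9.52% of all measured genes, and 7 of the 18 reached 20 CPM in Ctrl only. Gbp2, a guanylate-binding protein, was at 95.9 CPM in Ctrl against 26.4 CPM in AD, and the immunoproteasome gene Psmb8 at 108 and 30.8 CPM. Ifitm3, which blocks virus entry, was an exception at 869 and 1002 CPM. Among MHC class I genes 2 of 12 were at least 2-fold lower, a share near that of all genes, and B2m, at 1393 and 736 CPM, was not. Of 10 complement genes 3 were higher and 3 lower, and C4b, at 56.1 and 433 CPM, was 2.93 apart on the log2 scale. Of 15 NF-kB response genes 4 were higher and none lower, among them Sod2, a mitochondrial antioxidant, at 124 and 464 CPM.

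Of 4 measured Wnt ligands and R-spondins 3 were lower, all of which reached 20 CPM in Ctrl only, and the other one did so in AD only, with Rspo1, which strengthens Wnt signals, at 146 and 7.83 CPM. Apcdd1, a Wnt inhibitor of the upper dermis, was at 383 and 60.4 CPM. Of 18 glycolysis and hypoxia genes 6 were higher and 1 lower. Adm, the vasodilator adrenomedullin, was at 25.8 and 289 CPM, and Epas1, a hypoxia-inducible factor, at 7.26 and 76.8 CPM. In the prostaglandin pathway Ptges, which makes prostaglandin E2, was at 46.1 and 295 CPM, and Ptgfr, the receptor of prostaglandin F, at 192 and 39.2 CPM. Of 7 measured cell cycle genes 3 were lower and none higher, but 3 of the 7 reached 20 CPM in Ctrl only, with Mki67 in 30 Ctrl cells, 5 of which held 64.6% of its Ctrl UMIs, and in 9 AD cells.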
